A study of Mus musculus with 13 samples.

Results

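Pax3 and Pax7, a pair of closely related genes of the dorsal neural tube, are described here by the transcription factor binding measured around them in mouse neural progenitors, which were grown from embryonic stem (ES) cells. The members are the ChIP-seq peaks whose centre lies in a window of 400 kb around each gene on the mouse build mm9, chromosome 1 from 77950000 to 78350000 for Pax3 and chromosome 4 from 139150000 to 139550000 for Pax7. The windows held 20 of the 23280 peaks in 4 deposited lists, 13 in the Pax3 window and 7 in the Pax7 window. Within these windows every peak was taken, by position alone; the genes themselves were chosen with earlier results of these data known.

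Pax3 and Pax7 encode transcription factors with a paired domain and a homeodomain. In the early neural tube both are active in dorsal progenitors, and Sonic hedgehog, secreted from the notochord and floor plate, shuts them off ventrally; they also serve in neural crest and in muscle progenitors. Nkx2.2, Nkx6.1 and Olig2 are switched on or maintained ventrally by the same signal, in sets of progenitors that coincide only in part. They act largely as repressors of genes of other progenitor domains. Gli3 is a zinc finger factor that is processed to a repressor where hedgehog signal is absent.

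Nkx2.2, Nkx6.1 and Olig2 were profiled in ventral progenitors, grown for 2 days in suspension and 3 further days in 500 nM retinoic acid with 160 to 800 nM of a Smoothened agonist, which turns on hedgehog signalling. Gli3 was profiled in progenitors that received retinoic acid and no agonist, which the labels call dorsal. The ES cell line YFP3.1 gave the first replicate for Olig2 and for Nkx6.1, and its derivative Rosa26-Gli1FLAG gave the remaining libraries of the ventral factors. These lines mix the strains C57BL6/J, Swiss Webster and 129 Sv. The Gli3 cells were V6.5 cells (C57BL/6 crossed with 129/sv) in which a 3xFLAG-Avi tag had been inserted at the start codon of Gli3, so factor, culture and line cannot be told apart in any comparison with Gli3. There were 2 ChIP libraries for each ventral factor, 1 for Gli3, and 6 inputs. The series holds no expression data, so whether Pax3 and Pax7 were on or off in these cultures, and the labelled cell type itself, could not be checked here.

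Each factor had 1 peak list without scores, and every peak was 300 bp wide. Each ventral list had a coverage table in units of its own, in 3 blocks of columns. Libraries are not named in the column headers. There are 3 codes in the title of each table, of which the Nkx6.1 and Olig2 tables share the last, but no label says which library a code is or whether codes and blocks have the same order, so values are set side by side within a table only and no test between groups of libraries was made. Where Nkx6.1 and Olig2 peaks overlapped, block 3 of their tables traced the same profile (median Pearson r = 0.980 along the positions of 1580 peak pairs), against 0.254 between block 3 of the Nkx2.2 and Olig2 tables. The labels tie 1 library to both the Nkx6.1 and the Olig2 table, an input, so their block 3 is probably that input, though no label says so. Read depth is unknown, and 1 step of the coverage scale was worth between 0.245 and 0.581 units. Below, coverage is the mean within 250 bp of the peak centre, and its percentile is the percent of all peaks in the table at or below it. Peaks of 1 window come from the same libraries and are not replicates.

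The ventral factors had 13 peaks in the Pax3 window, all in 1 stretch of it, and 7 in the Pax7 window, most of them close together. How closely peaks were grouped was not set against the rest of the genome. The Pax3 window held 6 Olig2, 4 Nkx2.2 and 3 Nkx6.1 peaks, and the Pax7 window 4 Olig2, 1 Nkx2.2 and 2 Nkx6.1 peaks. When the genome was cut into 6601 tiles of the same width, 2.64% had at least 13 peaks of the 3 ventral lists, the number in the Pax3 window, and 15.0% had at least 7, the number in the Pax7 window. List by list, 6.44% of tiles held at least 6 Olig2 peaks, 4.48% at least 4 Nkx2.2 peaks and 5.88% at least 3 Nkx6.1 peaks, as Pax3 did. For the Pax7 counts the shares were 16.5% for 4 Olig2 peaks, 44.5% for 1 Nkx2.2 peak and 14.7% for 2 Nkx6.1 peaks. Counts such as those at Pax7 were thus less rare than those at Pax3, though above the median of 2 ventral peaks per tile. Tiles were cut without regard to genes, whereas the windows were set around genes. All 13 Pax3 peaks fell within 93.6 kb, from 78106945 to 78200536. On either side of that stretch no list had a peak for 471.2 kb towards lower coordinates and 160.2 kb towards higher ones. The 7 Pax7 peaks spread over 171.0 kb, with 5 of them within 3.53 kb of the middle of 1 shared region and 2 Olig2 peaks lying 126.3 and 167.1 kb away from it.

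**Figure D1:**
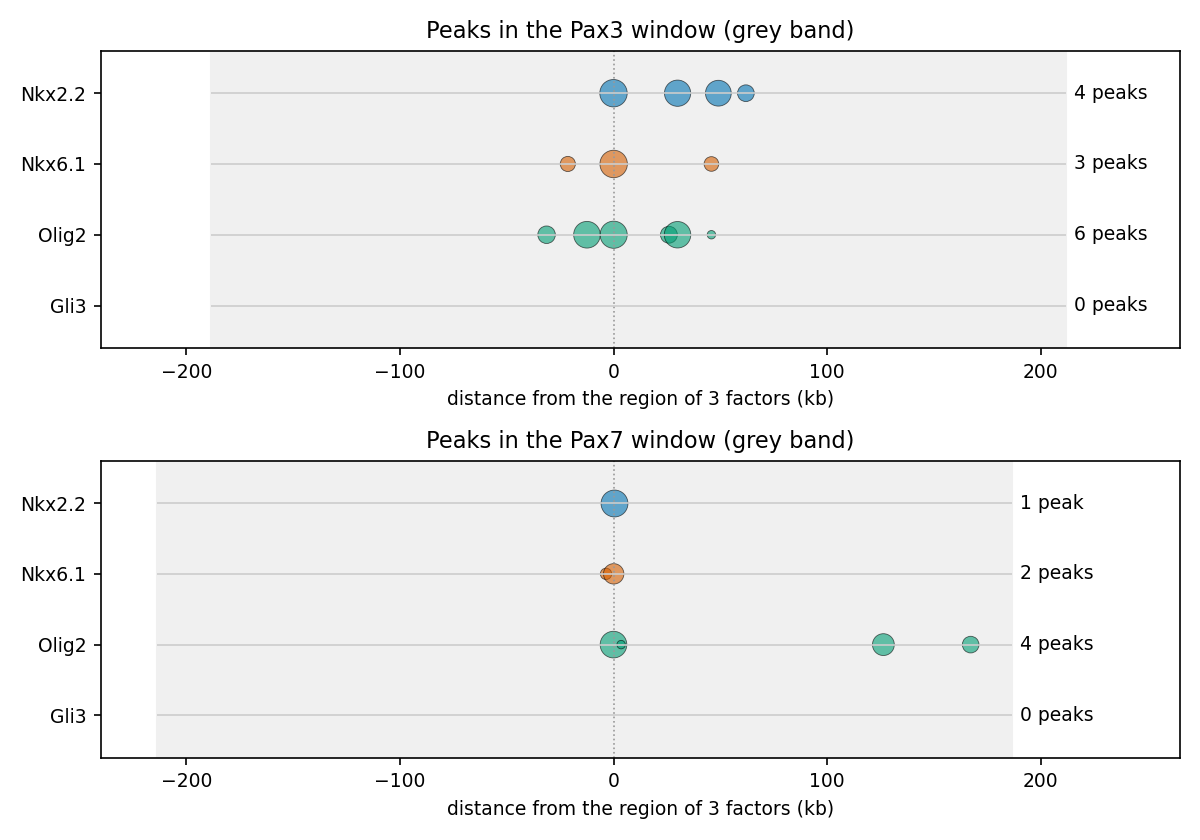
Positions of the peaks of Nkx2.2, Nkx6.1, Olig2 and Gli3 in the Pax3 window (top) and the Pax7 window (bottom), as distance in kb from the region bound by 3 factors in that window. Each circle is 1 peak, a larger circle has a higher percentile of block 1 coverage in its own table, and the grey band is the window. The 13 Pax3 peaks lie within 93.6 kb, and the Gli3 rows are empty. In both windows the largest circle of each ventral factor stands at the dotted line. Other large circles lie farther away at Pax3, and the smallest circles at Pax7 lie close beside the line.

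Each window held 1 region where peaks of Nkx2.2, Nkx6.1 and Olig2 overlapped and, having no Gli3 peak, no region where any of them met Gli3. Joined where they shared at least 1 bp, the 20 peaks formed 14 regions, of which 2 held 3 factors, 2 held 2 and 10 held 1. Of all 17913 ventral regions, 3.07% held 3 factors, 11.6% held 2 and 85.4% held 1, and 7.32% of the tiles contained a region of 3 factors. Among the 20 peaks, 10 overlapped a peak of another ventral factor (50.0%, 95% Wilson interval 29.9 to 70.1, counting error only), against 27.8% of all ventral peaks. These 10 peaks make up the 2 regions of 3 factors and the 2 regions of 2, and each overlap is counted from every partner's side. They are not independent, so the interval is too narrow, and a difference from 27.8% was not tested. By list, this held for 3 of 5 Nkx2.2 peaks against 30.3% of that list, 3 of 5 Nkx6.1 peaks against 46.7% and 4 of 10 Olig2 peaks against 20.1%. With so few peaks the intervals, from 23.1 to 88.2% for 3 of 5 and from 16.8 to 68.7% for 4 of 10, take in the shares of the Nkx2.2, Nkx6.1 and Olig2 lists.

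The Pax3 region of 3 factors lies on chromosome 1 from 78138271 to 78138650. Its Nkx2.2 peak had 111.5 units of coverage in block 1, 24.1 in block 2 and 1.39 in block 3, at percentiles 99.1, 97.7 and 57.5 of the Nkx2.2 table. The Nkx6.1 peak had 68.1, 35.1 and 1.25 units in blocks 1, 2 and 3, at percentiles 99.3, 99.1 and 88.4 of the Nkx6.1 table. The Olig2 peak had 67.5, 62.0 and 1.21 units, at percentiles 96.9, 98.2 and 84.4 of the Olig2 table. In blocks 1 and 2 all 3 peaks therefore stood near the top of their lists, whose medians were 11.3 and 8.44 units for Olig2, 18.4 and 4.43 for Nkx2.2 and 10.4 and 5.19 for Nkx6.1. This is the peak with the highest block 1 and block 2 coverage of each factor in the window. Block 3 was raised there as well, with centre over right flank ratios (each + 1 unit) of 2.13 for Olig2, 1.69 for Nkx2.2 and 2.17 for Nkx6.1, but its highest bin reached 7, 9 and 7 steps of its scale, against 431, 483 and 262 steps in block 1.

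On chromosome 4 the Pax7 region of 3 factors spans 139363402 to 139363795. Here the Nkx2.2 peak had 53.9, 13.4 and 0.443 units in blocks 1, 2 and 3, at percentiles 94.9, 90.9 and 9.19. The Olig2 peak had 44.0, 33.6 and 0.448 units, at percentiles 93.0, 93.4 and 25.1. Nkx6.1 differed from both, with 10.5, 6.45 and 0.523 units at percentiles 50.7, 60.6 and 36.8, which is the middle of its list. Block 3 did not exceed its flank at any of the 3 peaks, with ratios of 0.748, 0.502 and 0.575 for Nkx2.2, Olig2 and Nkx6.1.

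Coverage was higher at the Pax3 region than at the Pax7 region in every table, and by most for Nkx6.1. The Nkx6.1 ratio of Pax3 over Pax7 was 6.51 in block 1 and 5.44 in block 2. Olig2 had 1.53 and 1.85 in these blocks, and Nkx2.2 had 2.07 and 1.79. The 2 blocks of a table thus differed less from each other than Nkx6.1 did from Nkx2.2 and Olig2; with 1 region per gene the difference between factors was not tested. Ranked only among peaks that overlap both other ventral factors, the Pax3 peak stood at percentile 97.6 in block 1 and 95.3 in block 2 for Nkx6.1 (551 peaks), 96.6 and 90 for Nkx2.2 (560 peaks), and 85.2 and 86.3 for Olig2 (541 peaks). The Pax7 peak stood at 21.1 and 25.2 for Nkx6.1, 82.1 and 68.0 for Nkx2.2 and 76.0 and 69.0 for Olig2. The Pax3 region is thus high among such places for all 3 factors, and the Pax7 region is above the middle for Nkx2.2 and Olig2 and in the lower part for Nkx6.1. Block 3 was also higher at Pax3, by 3.13 times in the Nkx2.2 table, 2.39 in the Nkx6.1 table and 2.71 in the Olig2 table. The Nkx6.1 and Olig2 tables trace the same block 3 profile, so their ratios are not separate measurements. In both, the highest bin of block 3 was 7 steps at Pax3 and 2 steps at Pax7. The part of block 3 in the differences of blocks 1 and 2 was not tested.

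**Figure D2:**
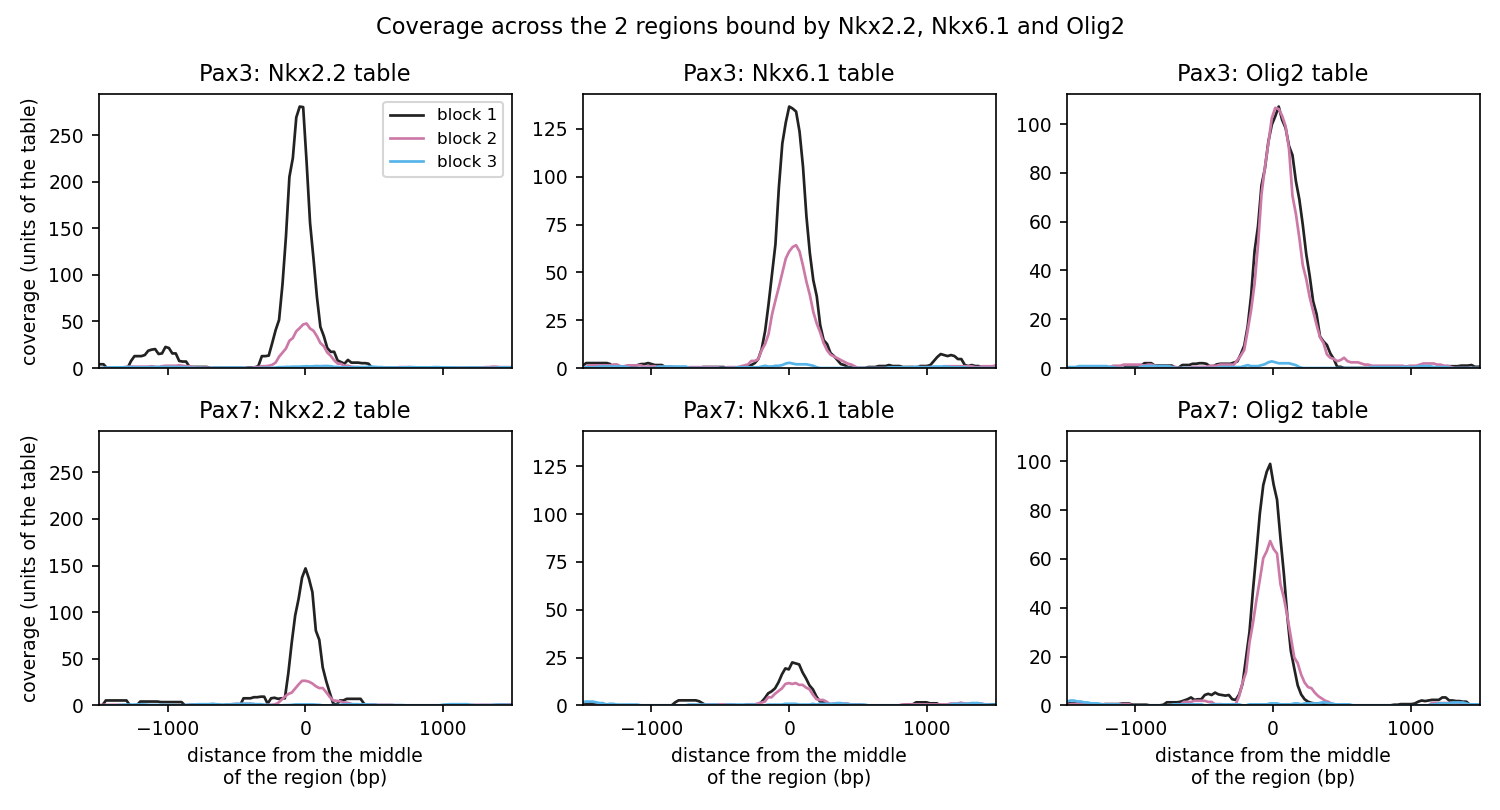
Coverage in bins of 25 bp, in units of each table, across the region of 3 factors of the Pax3 window (top row) and the Pax7 window (bottom row), with 1 column per table and the same vertical scale within a column. Lines are blocks 1, 2 and 3, and distance is in bp from the middle of the region. The highest Nkx6.1 bin of block 1 is 136.7 units at Pax3 and 22.4 at Pax7, while block 3 stays near 0.

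The peaks of different factors were almost superimposed in both regions. At Pax3 the Nkx6.1 and Olig2 centres were 15 bp apart, and the Nkx2.2 centre lay 65 bp from Nkx6.1 and 80 bp from Olig2. At Pax7 the order was Olig2, Nkx2.2 and Nkx6.1, with 49 bp between Olig2 and Nkx2.2 and 45 bp between Nkx2.2 and Nkx6.1. The 6 highest bins of blocks 1 and 2 fell within 90 bp of each other at Pax3 and within 45 bp at Pax7. Profiles read at the same genome positions from different tables had Pearson r of 0.775 to 0.957 in block 1 and 0.956 to 0.994 in block 2 at Pax3, and 0.891 to 0.941 and 0.935 to 0.978 at Pax7. Over all overlapping peak pairs of 2 tables the median r was 0.782 to 0.878 in block 1 and 0.840 to 0.883 in block 2, so the block 1 values at Pax3 lie around those of an ordinary overlapping pair. These describe shape along neighbouring bins, which are not independent. The lowest value, 0.775, was that of Nkx2.2 with Olig2 at Pax3, where the block 1 profile of Olig2 was 14 bins of 25 bp wide at 50% of its highest bin and that of Nkx2.2 was 8 bins wide. The Olig2 list had a median width of 9 bins in block 1, so this Olig2 profile was wider than usual, and in block 2 it was 11 bins wide, against a list median of 10. Nkx2.2 block 1 had a second, lower rise at Pax3, of 22.6 units at 0.975 kb towards lower coordinates, or 8.08% of its maximum.

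The Pax3 window had 2 further shared regions, and they differed widely in strength. The first, from 78168242 to 78168561 and 29.9 kb from the region of 3 factors, held Nkx2.2 and Olig2, a combination found in 4.15% of ventral regions. Its Nkx2.2 peak reached 39.3 units in block 1, with 17.3 in block 2 (percentiles 89.9 and 94.9), and its Olig2 peak had 39.2 and 28.3 units (percentiles 91.7 and 91.0). Both lay near the top of their lists, with centres 20 bp apart and profiles that correlated at r = 0.990 in block 1 and 0.976 in block 2. Block 3 stood at percentile 4.85 of the Nkx2.2 table and at percentile 92.5 of the Olig2 table at this place.

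The other shared region, from 78184102 to 78184405, held Nkx6.1 and Olig2 (5.64% of ventral regions) with centres 4 bp apart, and it was weak for both. Nkx6.1 had 7.40 units in block 1 and 3.68 in block 2, at percentiles 21.5 and 32.9. Olig2 had 4.71 and 5.77 units, at percentiles 0.945 and 32.8, so in block 1 it was among the lowest 1% of Olig2 peaks. Overlap with another factor thus did not go with high coverage at each shared region of this gene.

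Of the peaks of 1 factor, the strongest were an Olig2 and an Nkx2.2 peak in the Pax3 window. The Olig2 peak from 78125857 to 78126156 had 44.7 units in block 1 and 13.4 in block 2 (percentiles 93.2 and 70.2), and is the second highest Olig2 peak of the window in block 1. The Nkx2.2 peak from 78187352 to 78187651 had 34.3 and 10.6 units (percentiles 86.4 and 85.4), and carried a smaller rise 1.85 kb towards lower coordinates in both blocks, at 15.3% and 20.9% of the centre's maximum. Both stood well above the median of their table in each of blocks 1 and 2. The Nkx2.2 peak from 78200237 to 78200536, the member of the Pax3 group at the highest coordinates, had 14.8 and 1.90 units at percentiles 30.9 and 10.5. An Nkx6.1 peak from 78116891 to 78117190 had 7.60 and 5.78 units at percentiles 23.7 and 55.6. A further Olig2 peak, from 78164203 to 78164502, had 8.76 and 5.70 units at percentiles 31.8 and 32.4, and its block 1 flank was high, at 3.11 units. These 3 were of low to middling coverage for their lists.

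Around the Pax7 region, weak single peaks lay on both sides at close to equal distance. An Nkx6.1 peak from 139359916 to 139360215, 3.53 kb towards lower coordinates, had 6.24 units in block 1 and 2.17 in block 2 (percentiles 9.26 and 13.5). An Olig2 peak from 139366980 to 139367279, 3.53 kb towards higher coordinates, had 4.74 and 5.92 units (percentiles 0.996 and 33.9). The Olig2 peak farthest from the region, from 139530585 to 139530884, had 8.63 and 4.25 units (percentiles 30.6 and 21.1). The 4 peaks of a single factor in the Pax7 window all stood below percentile 60 of their tables in block 1.

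A pair of Olig2 peaks, 1 in each window, was present in block 1 and near the floor of the scale in block 2. The peak from 78106945 to 78107244 in the Pax3 window had 9.13 units in block 1 and 0.223 in block 2, which is below its block 2 flank of 0.514 units. The peak from 139489733 to 139490032 in the Pax7 window had 13.3 units in block 1 and 0.935 in block 2. Only 0.936% of all Olig2 peaks had less than 1 unit in block 2, and the Pax3 peak stood at percentile 0.0596 there. By the rule of 2 times the right flank the pattern was less rare. With 1 unit added to centre and flank, these 2 of 10 members passed it in block 1 and not in block 2, against 5.32% of the list. The Pax7 peak had a block 2 flank of 0 and a ratio of 1.935, just under the limit. With 0.1 unit added instead, 9 of 10 Olig2 members passed in block 2, so the count depends on this setting. All 10 Olig2 members exceeded 2 times the right flank in block 1, as 98.3% of the list did, and 8 of 10 did so in block 2, against 93.6% of the list. All 5 Nkx2.2 members passed in both blocks, against 98.0% and 83.2% of that list, as did all 5 Nkx6.1 members, against 98.8% and 86.4%. In block 3 the numbers were 1 of 10 for Olig2, 0 of 5 for Nkx2.2 and 1 of 5 for Nkx6.1, against 5.36%, 21.8% and 3.88% of the lists. The Olig2 and Nkx6.1 peaks that passed are those of the Pax3 region of 3 factors. List order followed block 1 coverage more closely than block 2. The Spearman correlation with line number was -0.928 and -0.634 for Olig2, -0.827 and -0.527 for Nkx2.2 and -0.891 and -0.525 for Nkx6.1. Blocks 1 and 2 are therefore not equal checks of a listed peak, and the reason was not tested.

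**Figure D3:**
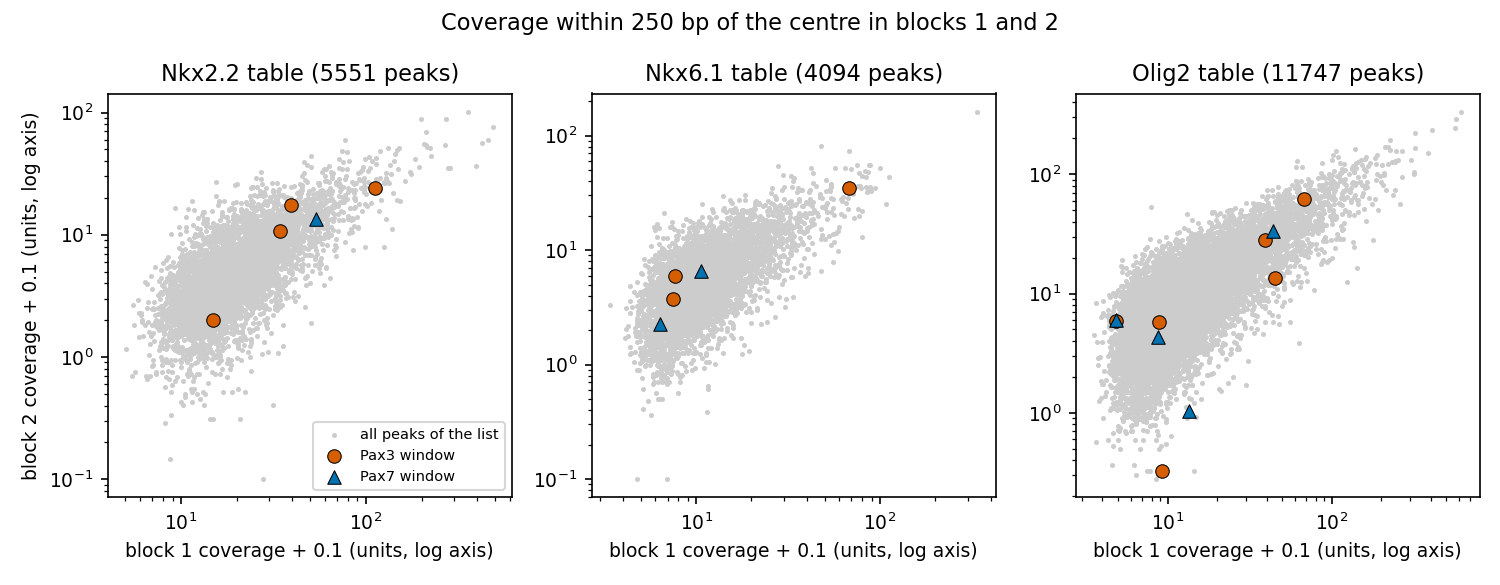
Coverage within 250 bp of the centre in block 1 (horizontal) and block 2 (vertical), both + 0.1 unit and on log axes, for every peak of the Nkx2.2, Nkx6.1 and Olig2 tables (grey) and for the members in the Pax3 window (circles) and the Pax7 window (triangles). The Pax3 region of 3 factors stands at the upper right in all 3 panels, and 2 Olig2 members, with 0.223 and 0.935 units in block 2, lie at the lower edge of the Olig2 cloud.

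Taken by list, the members of each factor spread widely, with 4 of 5 Nkx2.2 members above the middle of their list in each of blocks 1 and 2. In block 1 the median percentile was 89.9 for the 5 Nkx2.2 members (30.9 to 99.1), 23.7 for the 5 Nkx6.1 members (9.26 to 99.3) and 47.2 for the 10 Olig2 members (0.945 to 96.9). In block 2 the medians were 90.9 (10.5 to 97.7), 55.6 (13.5 to 99.1) and 33.3 (0.0596 to 98.2) in the same order, so the Nkx6.1 members were below the middle of their list in block 1 and slightly above it in block 2. Above percentile 90 in both blocks were 3 of 10 Olig2 members (6.8% of that list), 2 of 5 Nkx2.2 members (6.05%) and 1 of 5 Nkx6.1 members (5.69%). These 6 peaks are those of the 2 regions of 3 factors, less the Nkx6.1 peak at Pax7, and the Olig2 peak at 78168242. The region of 3 factors held most of the Nkx6.1 coverage summed over the peaks of the Pax3 window, 81.9% in block 1 and 78.8% in block 2. For Nkx2.2 in the same window it held 55.8% and 44.7%, and for Olig2 38.8% and 53.8%. At Pax3 the Nkx6.1 peak was 8.95 times the next in block 1 and 6.07 times in block 2, while for Nkx2.2 the same ratios were 2.84 and 1.39 and for Olig2 1.51 and 2.2. At Pax7 the ratios were lower for Nkx6.1, at 1.68 and 2.97, than for Olig2, at 3.31 and 5.68. Nkx2.2 had no second peak there.

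**Figure D4:**
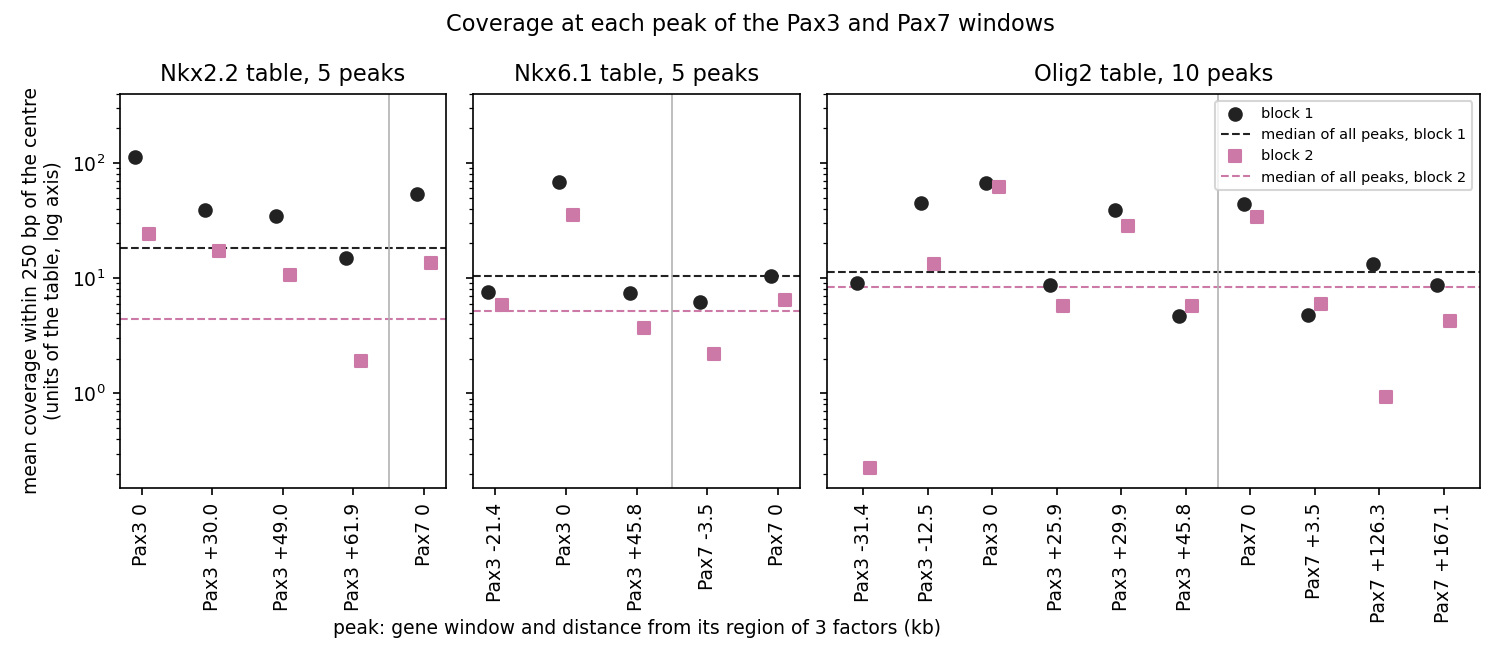
Mean coverage within 250 bp of the centre at each of the 20 peaks, on a log axis in units of each table, for block 1 (circles) and block 2 (squares), with 1 panel per table. Peaks are ordered by position and named by gene window and distance in kb from its region of 3 factors, the vertical line divides Pax3 from Pax7 peaks, and dashed lines are the medians over all peaks of the table. At the Pax3 region of 3 factors both blocks lie far above their medians in each panel.

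No Gli3 peak lay in either window. This is the common case, since 81.4% of the tiles of that width held none, and the Gli3 list had 1888 peaks in all. That no ventral member met Gli3 (0 of 20) follows from this absence and is not a further result. Over the whole lists, 3.26% of Olig2, 3.47% of Nkx6.1 and 7.91% of Nkx2.2 peaks overlapped a Gli3 peak. The nearest Gli3 peak to the Pax3 region of 3 factors lay 2.82 Mb away on chromosome 1. The nearest to the Pax7 region of 3 factors lay 222.8 kb away, from 139586265 to 139586564, which is 36.4 kb beyond the end of the window. Gli3 was profiled in cells without the agonist, so these counts compare different cultures.

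Just outside the windows, an Nkx6.1 peak from 78360689 to 78360988 lay 10.8 kb beyond the Pax3 window, and an Olig2 peak from 139146390 to 139146689 lay 3.46 kb before the Pax7 window. The Gli3 peak beyond the Pax7 window was part of a cluster within 36.6 kb of its edge that also had 2 Nkx2.2, 1 Nkx6.1 and 2 Olig2 peaks. Their centres ran from 139585565 for Nkx2.2 to 139586614 for the other Nkx2.2 peak, with the Gli3 centre 200 bp from the nearest of them. Both windows thus end close to further binding, and the peak counts rest in part on where the windows stop, more so at Pax7.

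Which part of each gene the peaks lie in was not analysed here, as the annotation at hand is for another build, GRCm38. In that annotation the nearest protein-coding genes to Pax3 (gene ID 18505) are Epha4 and Gm2102, and those to Pax7 (gene ID 18509) are Tas1r2 and Klhdc7a, and which gene a member lies nearest to was not analysed here. RefSeq's promoter table for GRCm38.p6 (300 bp around each start) matched 1 of the 2 genes, Pax7. Its promoter held no match on either strand to 6 short motifs known for these factor families, TNAAGTG for Nkx2.2 (11.5% of 32851 promoters hold it), TAATTA (5.29%) and TAATGA (9.78%) for Nkx6.1, CATATG (3.91%) and CAGATG (17.2%) for Olig2 and TGGGTGG (9.3%) for Gli proteins. This says only that these letters are not in that window. Sequence under the peaks was not read, since no genome of build mm9 was used here.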

How the data were processed

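Per the labels, crosslinked and sonicated chromatin was precipitated with antibodies to the ventral factors (a cocktail each for Nkx6.1 and for Nkx2.2) or to FLAG for tagged Gli3. HOMER, Bowtie2 2.2.4 and build mm9 appear in the submitters' processing notes, while the calling, pooling and scaling steps are not stated there. Peak lists as deposited by the authors hold positions only (chromosome, start, end), and the deposited coverage signal runs from -2000 to 2000 bp around each centre in steps of 25 bp. Per the file headers the 3 blocks of a table name no library. Table rows were matched to peaks by line. Positions are printed 1-based.

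The genes, windows and lists were chosen with earlier results of these data known, and the members then by position alone. Every member was described, with shared regions, the highest peak per table and window, and Gli3 in full. Peaks overlapped when sharing 1 bp or more, tiles began at position 1, and the flank was the outermost 250 bp on the right. The functions recovered 8 of 8 planted values on simulated data. No test of groups was made, since no label maps the codes in the table names to libraries and each factor has 1 list. Columns of other samples numbered 0. Python 3.11.15, numpy 2.4.6, pandas 2.3.3 and scipy 1.17.1 were used.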

Additional observations from a re-analysis of the deposited data

How the results depend on the processing

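Of 65 values recomputed under other settings, 48 stayed within their limits (1.5 times for counts, the 95% interval for shares and percentiles) and 17 moved. All counts of shared peaks stayed within theirs with centres within 100 or 1000 bp. Windows of 2 times the width gave 3 Nkx2.2, 8 Olig2 and 1 Gli3 peak at Pax7, against 1, 4 and 0. Windows of 0.5 times the width gave 2 Olig2 peaks there. No Pax3 count went beyond its limit, though 2 times the width gave 5 Nkx2.2 and 4 Nkx6.1 peaks at Pax3, against 4 and 3. Median block 1 percentiles were 92.2 (Nkx2.2), 31.7 (Nkx6.1) and 50.7 (Olig2) within 100 bp of the centre, and 92.7, 36.4 and 52.1 by the highest bin. Averaging blocks with 1 left out in turn gave 89.4 to 92.0 for Nkx2.2, 23.2 to 52.8 for Nkx6.1 and 28.8 to 44.5 for Olig2, against 89.9, 23.7 and 47.2 in block 1 alone. These averages mix blocks of unlike scale, and some include block 3, which is probably an input in the Nkx6.1 and Olig2 tables. Those that include block 1 are not independent of it. At a threshold of 4 times the flank, 5 of 5 Nkx6.1 members passed in block 1 and 2 of 5 in block 2, against 88.35% and 51.8% of the Nkx6.1 list. For Olig2 it was 7 of 10 and 6 of 10, against 89.7% and 72.3% of that list. For Nkx2.2 it was 5 of 5 and 4 of 5, against 92.6% and 44.6%. No paired analysis was possible because the columns carry no library names or replicate numbers. Block 3 values rest on few steps of their scale, so ranks there are coarse, and the causes of these shifts were not tested.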
